A study of Capsicum annuum with 78 samples.

Results

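Leaves of pepper plants (Capsicum annuum, cultivar CM334) held at 10 °C for 12 h were compared with leaves of mock plants taken at the same hour from the growth room at 24 °C. The members were chosen from the sample labels alone: the 3 libraries labelled as cold at 12 h and the 3 labelled as abiotic mock at 12 h, 6 of the 78 libraries of the series. All plants were 6 weeks old per the labels, and each library is a biological replicate made from leaves pooled from several plants, so the spread between libraries is a spread between pools and not between single plants. The other libraries hold leaves under cold, heat, mannitol or NaCl, sampled between 3 h and 72 h, and mock leaves of those times and of 0 h. The clock hour of harvest was not given in the sources used here. For the 12 h harvest, hours of treatment and time of day cannot be told apart.

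Pepper is a warm-season crop that is injured by chilling well above freezing. In plants, low temperature stiffens membranes and triggers calcium signals, which lead to the induction of CBF transcription factors and of the cold-regulated genes they activate. A second, partly separate route runs through the hormone abscisic acid (ABA), whose signalling is held down by protein phosphatases of the PP2C family. Many leaf transcripts also rise and fall over the day under the circadian clock, which is why a stressed leaf is set against a mock leaf of the same hour.

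The values were reads counted per gene, and genes carry the identifiers of the CM334 annotation, here shortened to scaffold and gene number. None of the identifiers matched the reference name table, so most genes below are known by identifier only. The libraries held 6479768, 5776377 and 4918537 counts in cold and 5935170, 5707681 and 6358417 in mock, within the series range of 4310398 to 7667094. For each of the 6 libraries, the library most like it among all 78 was one of its own group. Levels are given as CPM, the read count relative to the TMM-scaled total of the library, a scaling that assumes that most genes do not change. The TMM factors were 0.913, 0.893 and 0.868 in cold and 1.16, 1.07 and 1.09 in mock. CPM is not corrected for gene length, so a gene with more reads than another need not have more transcripts.

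The first question was how far the leaf transcriptome at 12 h of cold stood from that of the mock. Of 35884 genes in the table, 19588 had enough counts to be tested. A differentially expressed gene (DEG) had an adjusted p-value under 0.05 (edgeR, quasi-likelihood test, Benjamini-Hochberg method) and a log2 fold change over 1 in either direction, which is a change over 2-fold. There were 4849 DEGs, 24.8% of the tested genes. Of these, 2512 were higher in cold (12.8%) and 2337 were lower in cold (11.9%). The median log2 fold change over all tested genes was -0.04. The split between directions rested on the scaling. When libraries were scaled by their totals and not by TMM, the median shifted by -0.31 and the DEGs became 1908 higher and 3706 lower in cold.

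**Figure D1:**
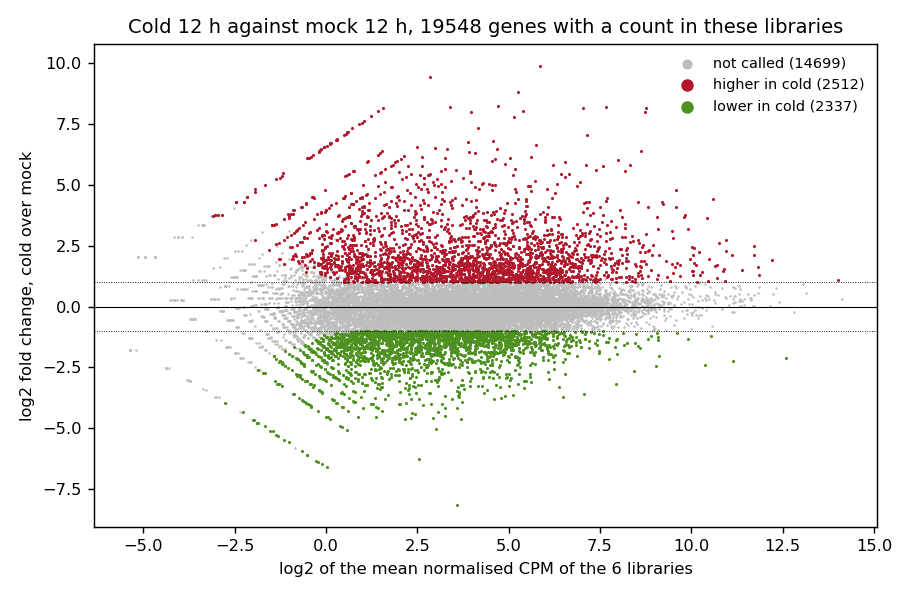
Log2 fold change of cold 12 h over mock 12 h (vertical axis) against log2 of the mean normalised CPM of the 6 libraries (horizontal axis) for the 19548 tested genes with a count in these libraries. The 2512 genes higher in cold and the 2337 genes lower in cold lie outside the dotted lines, which mark a change of 2-fold, and the rays at the left are genes with very few counts.

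With TMM scaling the genes higher in cold lay further from the mock than those lower in cold. The median log2 fold change was 1.88 among the genes higher in cold and -1.55 among those lower in cold. Of the genes higher in cold, 131 had a log2 fold change over 5 (above 32-fold), while 17 of those lower in cold passed that size. Changes of 2- to 4-fold made up 1380 of the higher and 1697 of the lower genes. In 2399 of the higher genes, the lowest cold library lay above the highest mock library. Among all tested genes, 27.6% lay apart in that direction. In 2281 of the lower genes, all 3 cold libraries lay below all 3 mock libraries, while 30.8% of all tested genes did so. The genes were called on these same libraries, which made such a gap nearly certain, so these counts are a description.

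The DEGs made up a different part of the RNA in the 2 groups. The genes higher in cold took 26.4%, 26.9% and 26.3% of the counts in the cold libraries, and 9.04%, 9.04% and 8.98% in the mock libraries. The genes lower in cold took 2.41%, 2.41% and 2.42% of the counts in cold and 9.20%, 9.42% and 9.10% in mock. These shares follow in part from how the genes were chosen and are a description.

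Genes named by rank below came only from DEGs whose cold and mock libraries did not overlap. The gene with the smallest p-value was scaffold1150.2. It had 2086, 1853 and 1741 counts in the cold libraries and 47, 43 and 44 in the mock libraries. Every cold library thus lay far above every mock library. Its level was 373 ± 30.2 CPM in cold and 6.75 ± 0.35 CPM in mock (SD, n = 3 each). The log2 fold change was 5.79 (edgeR adjusted p = 4.58e-48), with a standard error (SE) of 0.11. Here and below the SE was worked back from the test and is approximate. Across the time course the mock level of scaffold1150.2 was 548 CPM before treatment, then 225, 31.9 and 6.75 CPM at 3 h, 6 h and 12 h, and 616 and 814 CPM on the following days (24 h and 72 h). In cold it was 540, 364 and 373 CPM through the first 12 h, and 109 and 70.7 CPM after 24 h and 72 h. The 12 h comparison of this gene thus set a cold level below that of the 0 h leaves against the lowest of the mock levels. The next gene number on that scaffold, scaffold1150.3, was also a DEG, with 187, 157 and 133 counts in cold and 1, 1 and 0 in mock.

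Other genes with the smallest p-values had the same sharp separation. Scaffold640.14 had 1423, 1335 and 1236 counts in cold and 6, 5 and 7 in mock, a log2 fold change of 8.15 (SE 0.21, edgeR adjusted p = 2.67e-41). Scaffold1174.2 had 1856, 1670 and 1499 counts in cold and 45, 35 and 53 in mock, a log2 fold change of 5.62 (SE 0.13). For both genes the cold and mock libraries were far apart. Scaffold108.31 had a log2 fold change of 4.32 (SE 0.09), with 1544, 1301 and 1224 counts in cold and 97, 82 and 87 in mock. Scaffold523.76 had 2874, 2580 and 2179 counts in cold and 223, 197 and 222 in mock, a log2 fold change of 3.95 (SE 0.09). These 5 genes were also DEGs higher in cold than in heat, in mannitol and in NaCl at 12 h. Of all tested genes, 17.3%, 12.4% and 11.4% were. The genes were chosen with the same cold libraries, so this is a description and not independent evidence.

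**Figure D2:**
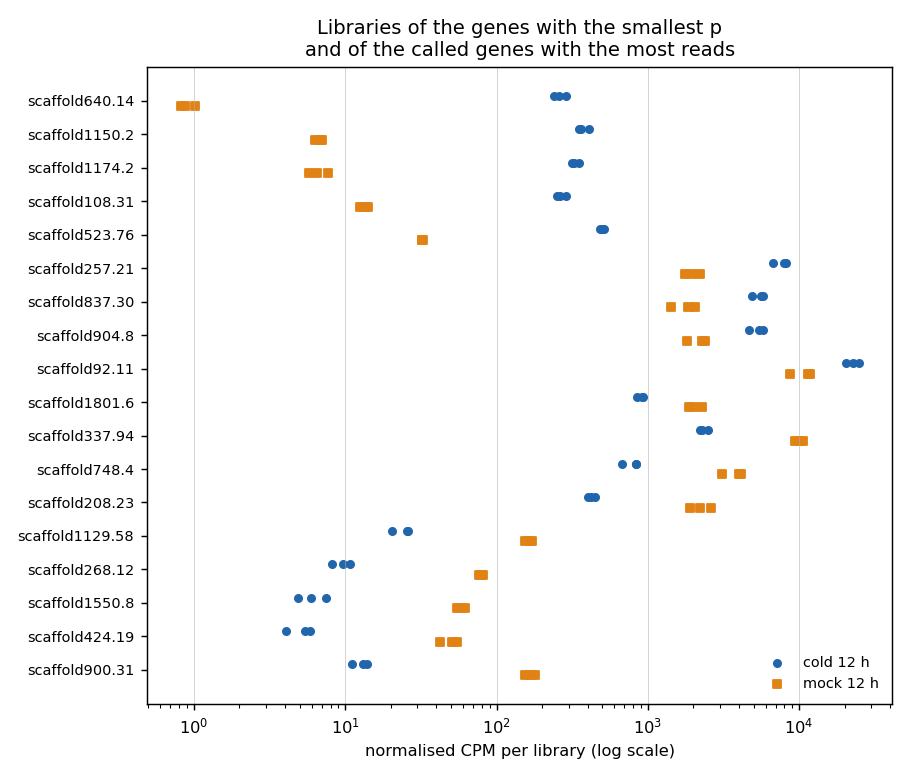
Normalised CPM (log axis) of single libraries for the genes with the smallest p-values and for the DEGs with the most reads, with the 3 cold 12 h libraries as circles and the 3 mock 12 h libraries as squares. In each of the 18 genes the cold and mock libraries do not overlap, as their choice required. Scaffold640.14 shows the widest gap among them.

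Some genes had next to no reads in mock leaves. The detection floor was set at 3 counts per library for all libraries of a group, and the fold of such a gene is given as a lower bound against 3 counts in each library. It is a bound on the observed counts and leaves out sampling error, so the true fold may be smaller. There were 275 genes higher in cold that lay at this floor in mock, 47 of them at 0 in all 3 mock libraries. Most were weak in cold too, and 19 had at least 50 counts in each cold library. The one with the most reads in cold was scaffold407.111, with 604, 722 and 443 counts in cold and 1, 1 and 0 in mock, at least 254-fold higher. Scaffold352.44 had 400, 470 and 398 counts in cold and 2, 2 and 2 in mock, at least 185-fold higher. Scaffold1161.31 had 376, 527 and 275 counts in cold and 1 in each mock library, at least 169-fold higher. In these genes the cold libraries spread more than in those with the smallest p-values, yet none came near the mock libraries.

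The levels of these genes under the other stresses differed from gene to gene. At 12 h scaffold407.111 stood at 115 CPM in cold, 23.8 CPM in mannitol, 1.94 CPM in NaCl and 0.283 CPM in heat. Scaffold490.32, at least 114-fold higher in cold than in mock, averaged 51.8 CPM in cold and 95.5 CPM in mannitol, and these groups did not differ by the DEG rule (log2 difference -0.88). Scaffold1045.47 was above the floor in mock, with 2207, 2364 and 1598 counts in cold and 10, 6 and 11 in mock, a log2 fold change of 8.19 (SE 0.56). It was higher in cold than in each of the other stresses at 12 h, by 3.20 (heat), 1.79 (mannitol) and 1.71 (NaCl) on the log2 scale. Against the mock of 12 h, scaffold1045.47 was also a DEG in heat, mannitol and NaCl, with log2 fold changes of 4.995, 6.40 and 6.48. Scaffold352.44 was a DEG against mock in these stresses too (5.17, 5.92 and 4.98). Scaffold407.111 and scaffold1161.31 were higher than mock by the DEG rule in mannitol and NaCl but not in heat. Scaffold198.4, at 21.1 ± 3.91 CPM in cold (SD, n = 3) and 0, 0 and 1 counts in mock, was at least 46.5-fold higher.

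The 4 genes with the most reads among the DEGs higher in cold, a choice that favours long genes, changed by smaller factors. Scaffold92.11 had 121180, 116119 and 105351 counts in cold and 60089, 72071 and 78667 in mock, a log2 fold change of 1.09 (SE 0.13). The groups did not overlap, as the choice required, but the change lay close to the limit. It was 0.78 with library totals, 0.98 with upper-quartile factors and 0.96 without mock replicate 1, in each case under the limit of 1. Scaffold257.21 had 39476, 41951 and 33671 counts in cold and 12095, 13577 and 13534 in mock, a log2 fold change of 1.94 (SE 0.14). Scaffold837.30 and scaffold904.8 had log2 fold changes of 1.62 (SE 0.14) and 1.28 (SE 0.12), and that of scaffold904.8 was 0.97 with library totals. In scaffold257.21, scaffold837.30 and scaffold904.8 the mock level fell between 6 h and 12 h by 1.71, 1.59 and 1.33 on the log2 scale, while the change in cold leaves over those hours was 0.33, 0.12 and 0.16 and passed no limit. At 72 h all 4 genes were DEGs in the other direction, with log2 fold changes in cold between -2.59 and -3.97.

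Among the genes lower in cold, scaffold900.31 had the smallest p-value. It had 83, 57 and 56 counts in cold and 1057, 1019 and 1250 in mock. The groups lay far apart, at 12.7 ± 1.53 CPM in cold and 167 ± 13.4 CPM in mock (SD, n = 3 each), and the log2 fold change was -3.71 (SE 0.15, edgeR adjusted p = 1.21e-30). Scaffold1129.58 had 121, 135 and 110 counts in cold and 1131, 1041 and 1071 in mock, a log2 fold change of -2.76 (SE 0.11). Scaffold268.12 followed at -3.06 (SE 0.13), scaffold424.19 at -3.28 (SE 0.14) and scaffold1550.8 at -3.27 (SE 0.15). In none of these 5 genes did a cold library reach a mock library, as their choice required. All 5 were also lower in cold than in heat, mannitol and NaCl at 12 h by the DEG rule. Of all tested genes, 17.2%, 12.5% and 12.5% were. These genes too were chosen with the same cold libraries, so this is a description.

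The largest decreases among genes with at least 20 CPM in mock lay between -3.78 and -4.63 on the log2 scale. Scaffold1209.38 had 5, 1 and 9 counts in cold and 152, 152 and 190 in mock (log2 fold change -4.63, SE 0.36). Scaffold628.56 had 7, 8 and 4 counts in cold and 139, 150 and 161 in mock (-4.17, SE 0.27). With so few reads in cold, the size of these decreases is known less well than their direction. At the detection floor in cold lay 268 of the lower genes, of which 3 had at least 50 counts in each mock library. Scaffold905.2 had 1, 1 and 0 counts in cold and 61, 87 and 79 in mock, at least 19.3-fold lower. Scaffold546.8 was at least 17.3-fold lower and scaffold1830.3 at least 16.4-fold lower, the last with an uneven mock group of 76, 77 and 40 counts. These bounds on the observed counts leave out sampling error too.

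Among the DEGs lower in cold, most reads fell on scaffold337.94, with 13103, 12807 and 9699 counts in cold and 64179, 64595 and 69190 in mock, a log2 fold change of -2.10 (SE 0.14). Its mock level was 487 CPM before treatment, climbed to 1715, 6204 and 9972 CPM by 3 h, 6 h and 12 h, and was back at 669 and 630 CPM on the later days. In cold leaves scaffold337.94 had 1214, 2007 and 2325 CPM at 3, 6 and 12 h, then 4108 and 2476 CPM. The gene was thus lower in cold at 6 h and 12 h and higher in cold at 24 h and 72 h, where its log2 fold changes were 2.62 and 1.97. Scaffold748.4, scaffold1801.6 and scaffold208.23 fell by 2.25 (SE 0.25), 1.19 (SE 0.10) and 2.40 (SE 0.16) on the log2 scale.

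A symbol could be attached to 17 genes, from labels in the study's heat maps that pair an Arabidopsis gene name with an identifier. The labels were read from a blurred picture, in which some digits look alike. For SRG3 and ATACP5 a single identifier of the table fitted the label. For the other 15 genes between 2 and 32 identifiers fitted, and the one taken was the only one that ranked among the first 300 genes of the heat map's stress and changed in the direction shown, so these symbols are uncertain. The study picked the genes of the heat maps on these same samples, and the ranking used the 12 h libraries too, so the direction of these genes at 12 h is not independent evidence. Of the 17 genes, 13 were higher in cold by the DEG rule, where 12.8% of all tested genes were. The other 4 were not DEGs, and none was lower.

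The symbols of 4 of the 13 belong to regulators of stress and ABA signalling in Arabidopsis. RD26, a NAC transcription factor induced by drought and ABA (scaffold213.1), had 1531, 1425 and 1175 counts in cold and 202, 192 and 223 in mock, a log2 fold change of 3.12 (SE 0.18, edgeR adjusted p = 1.08e-22). ATPP2CA, a PP2C phosphatase that dampens ABA signalling (scaffold1184.9), had 2957, 2906 and 2263 counts in cold and 372, 292 and 356 in mock, a log2 fold change of 3.38 (SE 0.16). ABI2, another phosphatase of that family (scaffold862.18), had 1045, 1056 and 672 counts in cold and 489, 454 and 541 in mock, a log2 fold change of 1.27 (SE 0.12). Cold and mock libraries did not overlap in any of the 3 genes, but ABI2 dropped to 0.96 with library totals and so missed the limit. ATNAC3, a second NAC transcription factor (scaffold162.87), had a log2 fold change of 3.66 (SE 0.30), with 151, 164 and 107 counts in cold and 12, 9 and 22 in mock.

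RD26, ATPP2CA and ATNAC3 were not higher in cold at 3 h by the DEG rule. RD26 had a log2 fold change of -0.34 at 3 h and of 2.85, 3.12, 2.97 and 0.66 at the 4 later times, and the effect at 12 h exceeded that at 3 h by 3.46 (edgeR adjusted p = 5.79e-17). ATPP2CA ran from 0.69 at 3 h over 2.66, 3.38 and 2.84 to 0.12 at 72 h. ATNAC3 was lower in cold at 3 h (-1.67) and higher from 6 h on. RD26 in cold leaves averaged 270 CPM at 12 h, above the 117, 145 and 150 CPM of heat, mannitol and NaCl leaves, and of these differences the one from heat (1.21) passed the DEG rule. ABI2 had 180 CPM in cold and 216, 240 and 268 CPM in heat, mannitol and NaCl, differences that did not pass it.

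**Figure D3:**
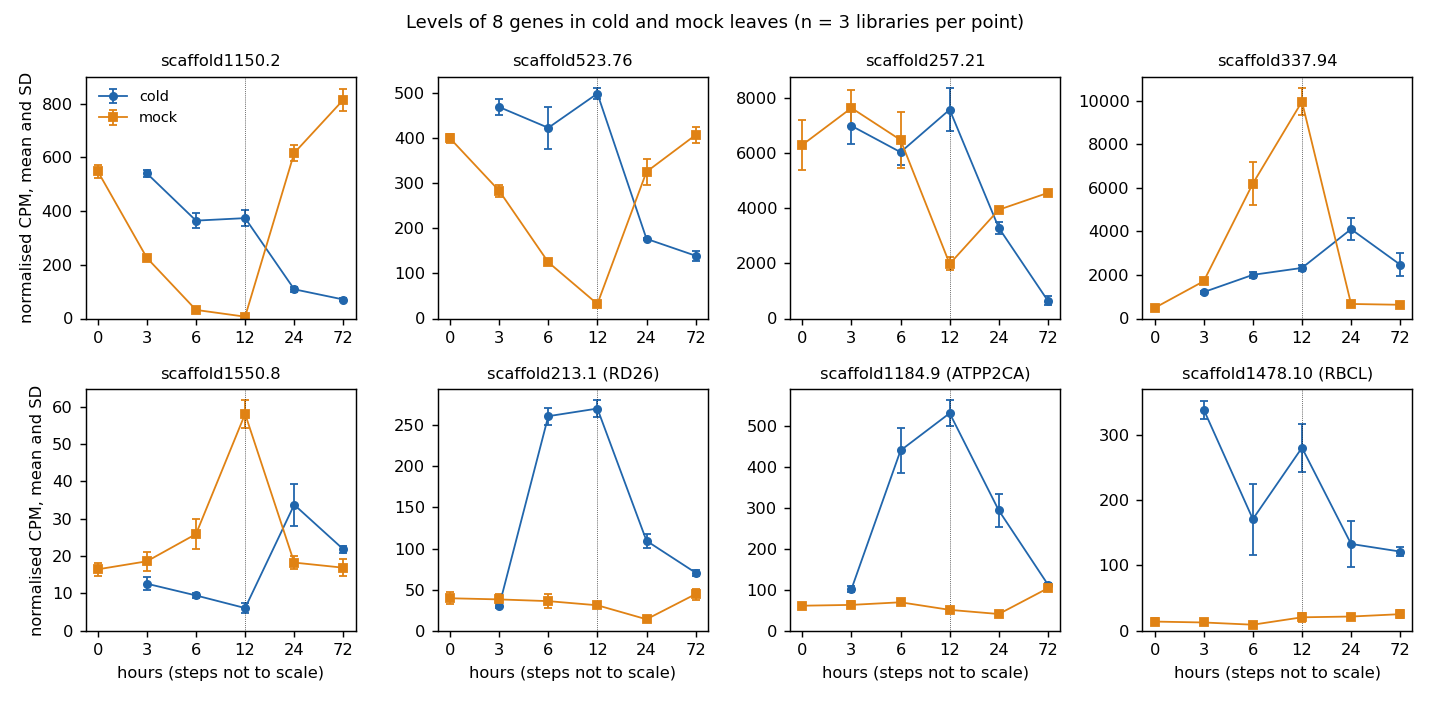
Mean normalised CPM with SD of 3 libraries (vertical axis) in cold and mock leaves over the hours of the experiment (horizontal axis, steps not to scale) for 8 genes, with 12 h marked by a dotted line. Scaffold1150.2, scaffold523.76 and scaffold257.21 reach their lowest mock level at 12 h, scaffold337.94 and scaffold1550.8 their highest, and in RD26, ATPP2CA and RBCL the cold level at 12 h lies far above the mock level of every hour.

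Other symbols among the 13 name enzymes and a transporter. ATACP5, an acid phosphatase induced by phosphate shortage (scaffold637.34), had 195, 157 and 127 counts in cold and 17, 26 and 21 in mock, a log2 fold change of 3.26 (SE 0.19). SRG3, a glycerophosphodiester phosphodiesterase (scaffold473.142), had 460, 397 and 303 counts in cold and 123, 99 and 110 in mock, a log2 fold change of 2.17 (SE 0.21). Both stayed higher in cold at every time tested. ATMGL, the methionine-degrading enzyme methionine gamma-lyase (scaffold567.88), had 479, 455 and 257 counts in cold and 40, 22 and 53 in mock (log2 fold change 3.73, SE 0.41). It had not changed at 3 h (-0.71) or 6 h (-0.21) by the DEG rule and reached 5.75 at 24 h. AAP7, an amino acid permease (scaffold623.59), had 7916, 7142 and 4601 counts in cold and 1402, 897 and 1349 in mock, a log2 fold change of 2.80 (SE 0.15). In each of these genes all cold libraries lay above all mock libraries. The labels ACA2 (scaffold775.11) and ATPS2 (scaffold1389.1) had log2 fold changes of 2.81 (SE 0.20) and 2.68 (SE 0.31).

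RBCL and PSBB are proteins that the chloroplast genome encodes in Arabidopsis. RBCL, the large subunit of Rubisco (scaffold1478.10), had 1405, 1555 and 1284 counts in cold and 193, 98 and 123 in mock, a log2 fold change of 3.76 (SE 0.28). PSBB, a chlorophyll-binding core protein of photosystem II (scaffold1739.6), had 432, 507 and 375 counts in cold and 43, 24 and 31 in mock, a log2 fold change of 4.13 (SE 0.24). Both groups were apart, with an uneven mock group in which replicate 1 was highest. Both genes were higher in cold at all 5 times, and PSBB was furthest from the mock at 3 h (6.22). Scaffold1478 was then looked at as a whole, a choice made after its values were seen. Of its 18 identifiers, 5 were tested, and all 5 were higher in cold, with log2 fold changes between 3.76 and 6.85. The largest was that of scaffold1478.16, with 8, 14 and 14 counts in cold and 0 in each mock library. Scaffold1478.9 had 7, 3 and 8 counts in cold and 0, 0 and 1 in mock. The folds of these genes at the floor are poorly known. On scaffold1739, 1 of 2 tested genes was higher. Reads from the chloroplast genome and from near-identical nuclear copies cannot be told apart in a table of counts, so these genes are uncertain.

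HSP21, a small heat shock protein of the chloroplast in Arabidopsis (scaffold303.8), had 78, 51 and 67 counts in cold and 21, 18 and 22 in mock, a log2 fold change of 2.06 (SE 0.38, edgeR adjusted p = 5.89e-06). In heat it averaged 1249 CPM at 12 h, against 12.9 CPM in cold. The 4 labelled genes that were no DEGs were the tonoplast aquaporin GAMMA-TIP (scaffold1432.12, -0.21), the splicing-complex protein MOS4 (scaffold1129.32, 0.14), homogentisate dioxygenase HGO (scaffold739.4, -0.09) and the actin ACT7 (scaffold26.40, 0.03). ACT7 had 404, 328 and 267 counts in cold and 482, 387 and 392 in mock, or 64.9 ± 3.05 CPM and 63.4 ± 6.75 CPM (SD, n = 3 each). The signs of ACT7 and MOS4 turned with the scaling, since with library totals their log2 fold changes were -0.28 and -0.17.

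The effect of cold at 12 h was then set beside that at the other times, each against the mock of its own hour. These comparisons share no library with the one at 12 h. At 6 h, 1170 of the 2512 genes higher at 12 h (46.6%) were also higher, where 8.47% of all tested genes were, and they formed 70.5% of the genes higher at 6 h. At 24 h, 1058 (42.1%) were also higher against 13.1% of all genes, at 72 h 825 (32.8%) against 16.2%, and at 3 h 391 (15.6%) against 3.09%. Those genes formed 41.3%, 26.1% and 64.5% of the higher genes at 24, 72 and 3 h. The 2337 genes lower at 12 h were lower again in 821 cases at 6 h (35.1%, against 7.06% of all genes), 780 at 72 h (33.4%, against 19%), 664 at 24 h (28.4%, against 10.7%) and 323 at 3 h (13.8%, against 5.23%). As shares of the lists at those times, these were 59.4%, 20.9%, 31.6% and 31.5%. At all 5 times, 81 genes were higher and 78 lower, while 384 higher and 589 lower genes passed the rule at 12 h and at no other time.

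**Figure D4:**
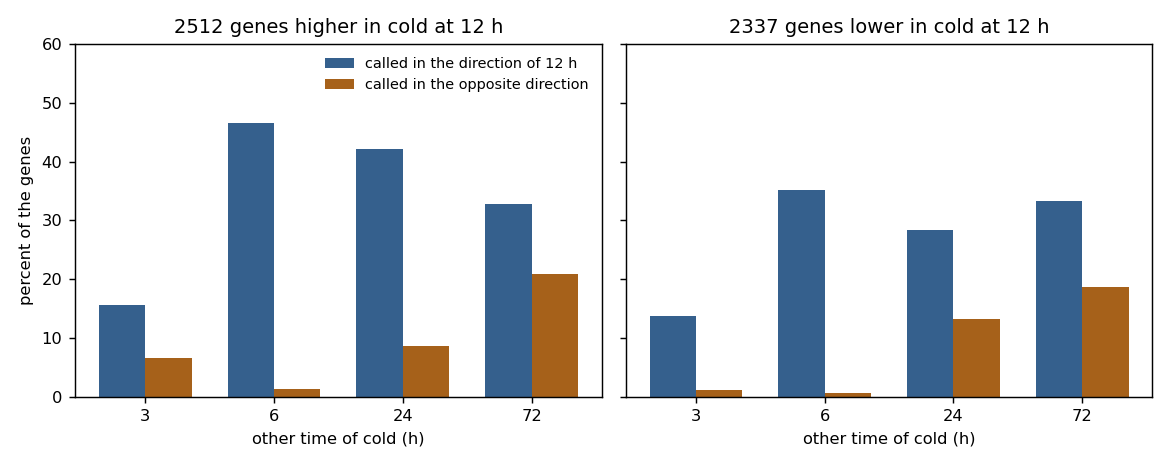
Percent (vertical axis) of the 2512 genes higher and the 2337 genes lower in cold at 12 h that passed the DEG rule in the same or in the opposite direction at the other times of cold (horizontal axis, in h). Agreement in direction is highest at 6 h for the higher genes (46.6%), and opposite calls reach 20.9% of the higher and 18.6% of the lower genes at 72 h, where 19% of all tested genes were lower and 16.2% higher in cold.

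Some genes were called in opposite directions. Of the genes higher at 12 h, 166 (6.61%) were lower after 3 h, 33 (1.31%) after 6 h, 217 (8.64%) after 24 h and 526 (20.9%) after 72 h of cold, where 5.23%, 7.06%, 10.7% and 19% of all tested genes were lower. The shares at 3 h and 72 h are thus near those of all genes, and the shares at 6 h and 24 h are below them. The count at 3 h was 97 without replicate 2 of cold at 3 h. Of the genes lower at 12 h, 28 (1.20%) were higher after 3 h, 16 (0.685%) after 6 h, 309 (13.2%) after 24 h and 435 (18.6%) after 72 h, where 3.09%, 8.47%, 13.1% and 16.2% of all tested genes were higher. At 24 h and 72 h these shares too are near those of all genes. With library totals, the genes higher at 12 h and lower later numbered 141 at 24 h and 285 at 72 h, and those lower at 12 h and higher later numbered 28 at 6 h, 500 at 24 h and 904 at 72 h. In all of the genes called in opposite directions with TMM scaling, the difference between the effects at the 2 times passed the test. Their choice by opposite calls made this nearly certain. Over all tested genes, the effect at 12 h differed from that at 3 h in 3938 genes (20.1%), from that at 6 h in 2251 (11.5%), from that at 24 h in 4865 (24.8%) and from that at 72 h in 7168 (36.6%).

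Scaffold311.38 was the gene with the smallest p-value for a turn of sign between 3 h and 12 h. At 12 h it had 1137, 1420 and 1175 counts in cold and 105, 131 and 98 in mock. It was lower in cold at 3 h by 1.24, close to the mock at 6 h (0.06), higher at 12 h by 3.87, and lower again at 24 h (-1.77) and 72 h (-5.34), all on the log2 scale. The effect at 12 h exceeded that at 3 h by 5.11 (SE 0.25, edgeR adjusted p = 6.94e-26). Scaffold1003.3 had log2 fold changes of -1.17 at 3 h, then 2.16, 4.83, 3.17 and 2.86 in the order of time. Scaffold105.23 turned the other way, at 1.28 at 3 h and -2.05 at 12 h. Between 12 h and 72 h the smallest p-values belonged to scaffold1150.2, scaffold523.76 and scaffold1150.3, whose log2 fold changes at 72 h were -3.52, -1.55 and -3.65.

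Because both groups were also sampled at 6 h, the 6 h up to the 12 h harvest could be followed in each group. Over these hours 1881 genes changed in mock leaves (9.6% of tested genes), 795 rising (4.06%) and 1086 falling (5.54%). In cold leaves 578 genes changed (2.95%), 361 rising (1.84%) and 217 falling (1.11%). The typical size of change was smaller in cold too, with a median absolute log2 fold change over all genes of 0.217 in cold and 0.324 in mock. Of the 795 genes that rose in mock, 8 rose in cold, 31 fell in cold and 756 did not pass in either direction, where 1.84% of all tested genes rose in cold. Their median log2 change was -0.15 in cold and 1.31 in mock. Of the 1086 genes that fell in mock, 42 fell in cold, 84 rose in cold and 960 did not pass, where 1.11% of all genes fell in cold. Their median log2 change was 0.04 in cold and -1.60 in mock. The mock medians follow from the choice of genes, whereas the cold medians come from libraries that the choice did not use.

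The shared changes were 1.01% of the genes rising in mock and 2.22% of those rising in cold, and 3.87% of the genes falling in mock and 19.4% of those falling in cold. Their total of 50 genes moved with single libraries. It was 17 without replicate 2 of cold at 6 h, 18 without replicate 2 of cold at 12 h, 28 without replicate 3 of cold at 12 h and 82 without replicate 1 of cold at 12 h. Scaffold1174.2 and scaffold628.56 are examples. Both were named from the same 12 h libraries, a choice that favours such a pattern. Between 6 h and 12 h scaffold1174.2 fell by 3.48 on the log2 scale in mock leaves (SE 0.13), while its change in cold leaves was 0.11 (SE 0.09). Scaffold628.56 rose by 2.09 in mock leaves over those hours, while its change in cold leaves was -0.92 and did not pass the rule.

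**Figure D5:**
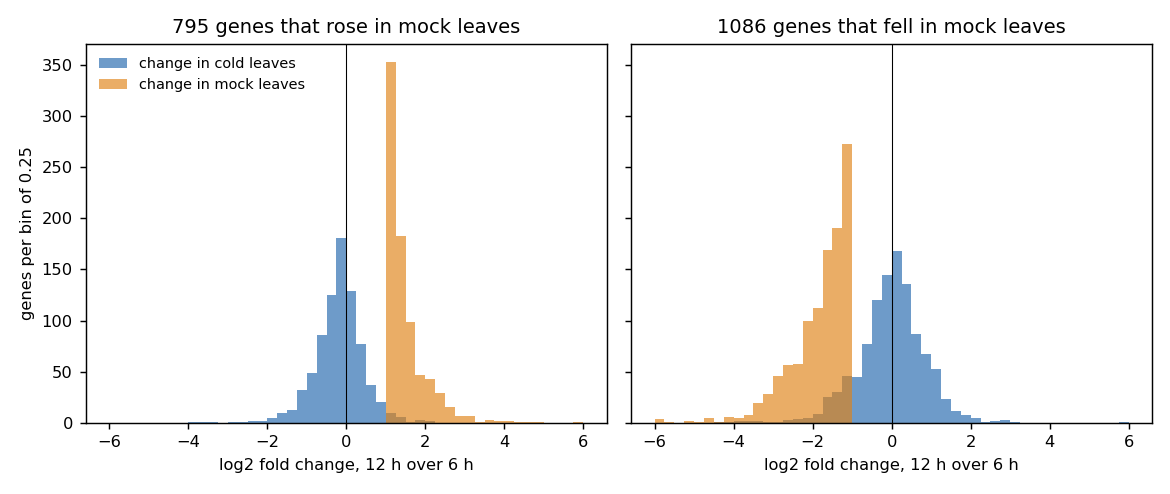
Number of genes per bin of 0.25 (vertical axis) by log2 fold change between 6 h and 12 h (horizontal axis) in cold and mock leaves, for the 795 genes that rose and the 1086 that fell in mock leaves. Values beyond 6 stand in the outermost bin. The cold changes of both gene sets centre near 0, with medians of -0.15 and 0.04.

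At 12 h, cold leaves were also compared directly with leaves under the other stresses. Cold differed from heat (40 °C) in 6766 genes (34.5%), of which 3393 were higher and 3373 lower in cold. It differed from 400 mM mannitol in 4883 genes (24.9%), of which 2429 were higher and 2454 lower in cold, and from 400 mM NaCl in 4672 genes (23.9%), of which 2230 were higher and 2442 lower in cold. These 3 comparisons share the cold libraries. Against the mock of 12 h, heat leaves differed in 3862 genes, mannitol leaves in 1153 and NaCl leaves in 1628, while cold leaves differed in 4849. How many genes of the direct comparisons are also DEGs of cold against mock was not counted.

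Finally, DEGs were described by their place among the gene identifiers, which number the genes of a scaffold. Positions on the genome were not analysed here. Of 2074 higher genes whose next or previous number was also tested, 635 (30.6%) had a higher neighbour, while 17.8% of all 16410 tested genes with such a neighbour had one. Of 1938 lower genes, 491 (25.3%) had a lower neighbour, against 16.8% of all. Among the 12265 adjacent pairs, 353 were both higher, 266 both lower and 281 split. Whether neighbours are copies of each other that share reads was not tested. Runs of at least 4 DEGs in the same direction were found 18 times, 14 of them higher in cold. The number of pairs or runs expected from the shares of DEGs was not worked out, so these counts are a description. The longest held 7 genes, scaffold1056.9 to scaffold1056.15, with log2 fold changes between 1.20 and 4.27. The run of 5 genes at scaffold837.27 to scaffold837.31 includes scaffold837.30. The 5 genes scaffold1595.1 to scaffold1595.5 had log2 fold changes between 2.68 and 6.47, with no more than 6 counts in any mock library. Both of these runs held genes near the floor in cold too, with lowest cold counts of 1 (scaffold837) and 2 (scaffold1595).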

How the data were processed

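RNA-seq reads of pepper leaves were trimmed with cutadapt 1.9.1 (FastQC 0.11.5 for quality), aligned to the CM334 genome with HISAT2 and counted per gene with featureCounts 1.5.2 per the labels. The libraries were strand-specific, and the strand setting of the counting was not given in the sources used here. The authors deposited read counts without normalization, and 0 columns belonged to other series. Counts rest on reads without molecular identifiers. The p-values rest on counting error and the spread between libraries, which are pools of plants. Each SE was worked back from the test, as the absolute log2 fold change over the square root of its F statistic. These SEs are approximate. For genes with few counts in a group they can be too small or too large. Genes passing filterByExpr were fitted in edgeR 4.0.16 (R 4.3.3, limma 3.58.1) with a quasi-likelihood model of all 78 libraries in 26 groups, TMM factors and 52 residual degrees of freedom. The method was run on counts simulated from the fitted model itself, with changes set only in well-covered genes and equally in both directions. That simulation cannot test the scaling, the model or genes near the floor. Adjustment of p-values (Benjamini-Hochberg) was done per contrast. DESeq2 1.42.0 and other scalings, filters, limits and samples were alternatives. Members and lists were chosen with earlier results of these data known. Named were, by direction, the 5 DEGs of smallest p, the 5 of largest change at 20 CPM or more, the 3 with the most CPM at the floor of the other group and the 4 with the most reads, the 3 sign turns of smallest p against 3 h and 72 h, and genes with a heat map symbol among the first 300 of its stress (17 of 22 symbols). Apart from the genes with a symbol, only DEGs whose cold and mock libraries did not overlap could be named. Identifiers matched 0 of 48341 reference genes, so no pathway list or sequence was used. Gene Ontology enrichment was not analysed here.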

Additional observations from a re-analysis of the deposited data

Results flagged for a closer look

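The effect of cold at 12 h differed from its effect at another time in many genes, by a test of the difference itself (edgeR, adjusted p under 0.05 and a log2 difference over 1). The number of genes was 3938 against 3 h, 2251 against 6 h, 4865 against 24 h and 7168 against 72 h. The mock of each hour enters these differences as much as the cold leaves do.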

How the results depend on the processing

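With replicate block, 4859 genes were called in cold 12 h against mock 12 h (2511 higher, 2348 lower) in place of 4849, and no count moved by over 1.5 times. Deviations from the group means correlated at 0.29, 0.09 and 0.08 for equal replicate numbers. Cold replicates 1 and 2 correlated best with the mock replicate of equal number, and cold replicate 3 with mock replicate 2 (0.16). Whether replicate numbers pair the samples cannot be told from these values. DESeq2 called 4725. Library totals gave 3706 lower genes. Without a fold limit the counts were 10357 (4948 higher, 5409 lower), 6935, 4704, 8608 and 11047 for the differences from 3, 6, 24 and 72 h, 12906, 10837 and 10661 against heat, mannitol and NaCl, and 2195 (cold), 6565 (mock) and 386 (both, same direction) between 6 h and 12 h. With a test against a log2 change of 1 (glmTreat) they were 2756 (1629 higher, 1127 lower), 1679, 615, 2479 and 4640, then 4229, 2566 and 2387, then 36, 437 and 0. Genes at the floor in either group numbered 543, or 203 at a floor of 1 count, 1478 at 10 counts, 843 with no filter and 189 in a fit of the 6 libraries alone. Leaving out each library in turn gave 4696 to 4950 calls at 12 h and 17 to 82 genes changing alike between 6 h and 12 h. Among named genes, 843 of 848 values in refits kept their side of the limits and 5 fell under it: scaffold92.11 (3 settings), scaffold904.8 and scaffold862.18, as given above. The limits were not varied for named genes, and many were named for a small p-value or a large change, which favours a stable call. No call reversed. Causes were not tested, apart from the limits themselves. Low counts limit the folds of genes near the floor, and 3 libraries a group limit all errors.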
